A study of Rattus norvegicus with 6 samples.

Results

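The muscle miRNAs miR-1, miR-133a, miR-133b, miR-206, miR-208a, miR-208b, and miR-499 were followed in small RNA libraries of the rat lens capsule. They were taken from the count table by name, with both arms of each precursor, which gave 14 of the 910 names listed. Of these 14, 10 were counted in at least 1 library and 6 had enough counts to be tested, among 341 miRNAs tested in all. The 6 were miR-1-3p, miR-133a-3p, miR-133a-5p, miR-133b-3p, miR-206-3p, and miR-499-5p, and each of them was counted in every library of both groups.

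The libraries came from the capsular membrane of 6 lenses of Sprague-Dawley rat pups that were 8 days old when the model was set up. In the Na2SeO3 group, 3 pups received sodium selenite at 20 μmol/kg under the skin of the neck on days 3, 5, and 7, which clouds the lens. In the control group, 3 pups received saline on the same days, and lenses were taken on day 15. The control libraries are labelled WT, but no genotype was compared. The counts summed to between 1806596 and 2829903 in the control libraries and to between 663096 and 968151 in the Na2SeO3 libraries. A miRNA therefore needed between 1.06 and 1.66 CPM in the control libraries, and between 3.10 and 4.52 CPM in the Na2SeO3 libraries, to reach 3 counts, and such limits cover counting error only. Values by library are listed in the order of libraries 1, 2, and 3. Each library came from a separate rat, so the rat is the unit of every test, with 3 rats per group. The tests of single miRNAs also draw their estimate of the spread from all miRNAs tested.

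A miRNA is cut from a hairpin precursor and guides silencing complexes to mRNAs that pair with its seed, bases 2 to 8. The muscle miRNAs, or myomiRs, are made at high levels in striated muscle, where MyoD, SRF, and MEF2 drive their genes. miR-1 and miR-206 favour the differentiation of muscle cells, miR-133 is known for holding back SRF and favouring proliferation, and miR-208a, miR-208b, and miR-499 are made from introns of myosin heavy chain genes. miR-206 is nearly restricted to skeletal muscle, whereas miR-208a belongs to the heart. The lens itself holds no muscle. The ciliary body and iris beside it hold smooth muscle, and the muscles that move the eye are striated.

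The mature sequences are shown because the members differ by few bases, so that the counts of a name depend on single positions of a read. They are from RefSeq (assembly GRCr8), in which 13 of the 14 names were found, and are written 5′ to 3′ with the seed in capitals.
rno-miR-1-3p: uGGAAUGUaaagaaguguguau
rno-miR-1b: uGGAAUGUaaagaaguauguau
rno-miR-206-3p: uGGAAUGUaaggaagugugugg
rno-miR-133a-3p: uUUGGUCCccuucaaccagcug
rno-miR-133b-3p: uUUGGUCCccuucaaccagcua
rno-miR-499-5p: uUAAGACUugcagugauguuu
rno-miR-208a-3p: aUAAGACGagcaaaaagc
rno-miR-208b-3p: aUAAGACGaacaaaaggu

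These sequences form separate seed groups. The seed GGAAUGU was shared by miR-1-3p, miR-206-3p, and miR-1b, a miRNA outside the names followed here that is given beside them because of its seed. Counted from 1 at the 5′ end and with miR-1-3p as the reference, miR-1b differed at G17A alone, and miR-206-3p differed at A11G, A21G, and U22G. The seed UUGGUCC was shared by miR-133a-3p and miR-133b-3p, which were identical over 21 of 22 bases and differed only at the last base, G22A. A read that ends before that base fits both names. How the authors' counting divided such reads is not stated, so the split between miR-133a-3p and miR-133b-3p is uncertain. The same caution holds for miR-1-3p and miR-1b, which a single base tells apart.

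In the annotation of GRCr8, Mir1 and Mir133a1 lay within 10 kb of each other inside the protein-coding gene Mib1, and Mir206 and Mir133b lay within 10 kb of each other inside the lncRNA gene LOC120094648. These are the pairs taken as bicistronic, that is, made as 1 primary transcript. Mir1b overlapped no annotated gene and had no annotated miRNA gene within 10 kb. Mir499a lay in Myh7b, Mir208a in Myh6, and Mir208b in Myh7. Mir3571 overlapped Mir1 and Mir3582 overlapped Mir133a1, and whether strand was used in the counting is not stated. The hairpins of the 3 genes with the shared seed GGAAUGU are given with the counted mature arm in capitals, to show which precursor each of the nearly identical mature forms comes from.
Mir1: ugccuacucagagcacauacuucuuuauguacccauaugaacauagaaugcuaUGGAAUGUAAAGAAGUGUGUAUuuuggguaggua
Mir1b: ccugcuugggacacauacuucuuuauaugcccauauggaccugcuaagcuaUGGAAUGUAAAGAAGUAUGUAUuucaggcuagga
Mir206: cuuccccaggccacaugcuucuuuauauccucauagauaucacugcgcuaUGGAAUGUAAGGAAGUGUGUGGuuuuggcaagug

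The first question was how these miRNAs differed between the cataractous and the clear lenses. miR-206-3p rose 3.35-fold in the Na2SeO3 group, miR-133b-3p, miR-1-3p, and miR-133a-3p rose by smaller amounts, and miR-499-5p did not pass the test. Of the 6 tested, 4 passed an adjusted p-value of 0.05 (quasi-likelihood test of edgeR, adjusted over the 341 miRNAs by Benjamini-Hochberg), all 4 of them higher, beside 20.8% of all miRNAs tested that passed in that direction and 34.6% that passed in either. Only miR-206-3p also passed the study's threshold of 1 for the absolute log2 fold change and was a differentially expressed miRNA (DEmiRNA), beside 16.4% of all miRNAs tested, of which 11.4% were higher and 4.99% were lower. The median log2 fold change was 0.68 over the 6 and 0.08 over all 341. In all 6 the CPM of the 3 libraries of a group lay wholly above those of the other, as in 46.3% of all miRNAs tested. The tissue was sequenced in bulk, so fewer or more cells of a type cannot be told apart from less or more RNA per cell.

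Direction depended on what the libraries were scaled to. CPM here are counts scaled to a common library total after TMM, which compares each miRNA with the bulk of the other counted ones. Of the raw reads of a library, 25.6% to 39.7% were counted on miRNA names in the control group and 11.4% to 13.03% in the Na2SeO3 group. When the raw reads were used as the scale, the median over all 341 moved by -1.15 on the log2 scale, and miR-1-3p, miR-133a-3p, and miR-133b-3p no longer rose (log2 fold changes of -0.44, -0.44, and -0.19, none past the test). miR-206-3p stayed positive at 0.59 but did not pass (adjusted p = 0.112, edgeR). miR-499-5p was the only member past the test on this scale, as a DEmiRNA that was lower (log2 fold change -1.68, adjusted p = 1.53e-05, edgeR), where the median over all 341 was -1.07. Without TMM, scaling to library size moved the median by 0.19. With TMM there were 56 DEmiRNAs, 39 higher and 17 lower. Separate fits gave 53 higher and 10 lower with library size only, 32 and 22 with upper-quartile scaling, and 6 and 176 with raw reads. Ratios between members within a library do not depend on this choice and are given below beside each pair.

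**Figure D1:**
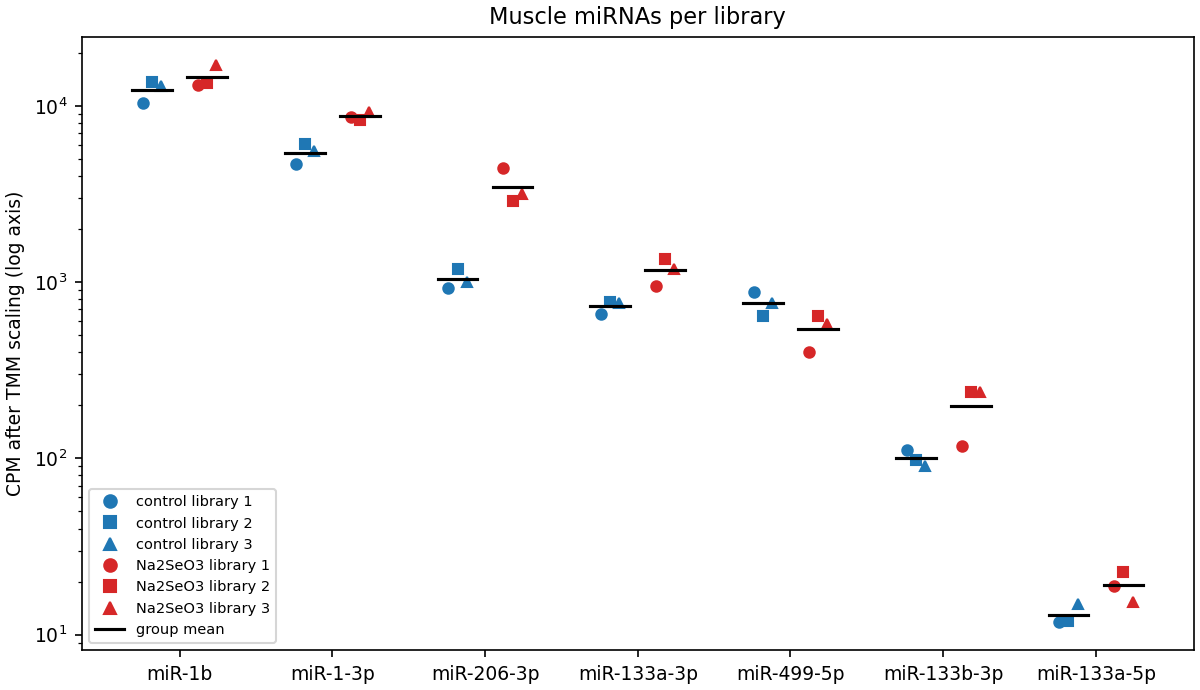
CPM after TMM scaling (log axis) of the 6 muscle miRNAs tested and of miR-1b in each library, with control libraries in blue, Na2SeO3 libraries in red, the marker giving the library number, and bars for the group means (n = 3). The Na2SeO3 libraries lie above all control libraries for miR-206-3p (2874 to 4419 against 930 to 1183 CPM) and below them for miR-499-5p, and with raw reads as the scale miR-1-3p, miR-133a-3p, and miR-133b-3p turned to lower values.

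Among the miRNAs with the miR-1 seed, miR-206-3p was counted 2693, 2288, and 1556 times in the control libraries and 3035, 3166, and 2891 times in the Na2SeO3 libraries. After scaling these were 930, 1183, and 1007 CPM against 4419, 2874, and 3180 CPM. Every Na2SeO3 library thus held more raw counts of miR-206-3p than every control library, although each had fewer counts in all. Mean CPM was 1040 ± 130 in the control group and 3491 ± 818 in the Na2SeO3 group (SD, n = 3 each). This gave a log2 fold change of 1.75 (SE 0.19; edgeR adjusted p = 3.48e-05). It ranked 10 among the 341 log2 fold changes from the highest down. Na2SeO3 library 1 was the highest, and without it the log2 fold change was 1.51. In rank by counts, miR-206-3p was between 52 and 58 in the control libraries and between 29 and 36 in the Na2SeO3 libraries. The other arm, miR-206-5p, was counted once in control library 1 and nowhere else.

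miR-1-3p, the most abundant of the names followed, was counted 13522, 11790, and 8553 times in the control libraries and 5977, 9227, and 8435 times in the Na2SeO3 libraries. These were 4671, 6098, and 5535 CPM against 8703, 8376, and 9278 CPM, and the groups did not overlap. The log2 fold change was 0.69 (SE 0.15; edgeR adjusted p = 0.00351), a rise below the fold change threshold. When single libraries were left out it still passed, with log2 fold changes from 0.60 to 0.79. The arm miR-1-5p had no count in any library, and counting error leaves room for an expected count of up to about 3 per library.

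miR-1b, a single base from miR-1-3p, was more abundant than any member. It had 10396, 13639, and 12983 CPM in the control libraries and 13153, 13477, and 17164 CPM in the Na2SeO3 libraries. The groups overlapped, and its log2 fold change of 0.24 (SE 0.16; edgeR adjusted p = 0.273) did not pass. It passed as higher with library size only (0.44, edgeR adjusted p = 0.026) and as lower with raw reads as the scale (-0.88, edgeR adjusted p = 0.0071), so its direction depended on the scale. The ratio of miR-1-3p to miR-1b was 0.449, 0.447, and 0.426 in the control libraries and 0.662, 0.622, and 0.541 in the Na2SeO3 libraries. No library of either group lay within the range of the other, and the difference of the mean log2 ratio was 0.46 (two-sided exact permutation test; p = 0.1, below which 3 libraries against 3 cannot go). This ratio was chosen after the counts were seen.

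The 3 miRNAs of the seed GGAAUGU can also be read as shares of their summed counts, since they would pair with the same seed matches. The share of miR-206-3p was 5.82% (95% exact Clopper-Pearson interval 5.60% to 6.03%), 5.66% (5.43% to 5.89%), and 5.16% (4.91% to 5.41%) in the control libraries. It was 16.8% (16.3% to 17.4%), 11.6% (11.2% to 12.01%), and 10.7% (10.4% to 11.1%) in the Na2SeO3 libraries. These intervals, and those of the shares further below, cover counting error within a library and not the spread between rats. The mean share went from 5.54% ± 0.34 to 13.1% ± 3.29 (SD, n = 3 each), while that of miR-1b went from 65.6% ± 0.82 to 54.2% ± 3.95 and that of miR-1-3p from 28.9% ± 0.48 to 32.8% ± 1.31 (exact permutation test, p = 0.1 each, n = 3 per group). miR-1b remained the most counted of the 3 in every library. The 3 together took 1.75% ± 0.17 of all counts in the control group and 2.87% ± 0.18 in the Na2SeO3 group (SD, n = 3 each). With raw reads as the scale, the log2 fold changes were -0.88 for miR-1b, -0.44 for miR-1-3p, and 0.59 for miR-206-3p. The sum was not tested on that scale.

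**Figure D2:**
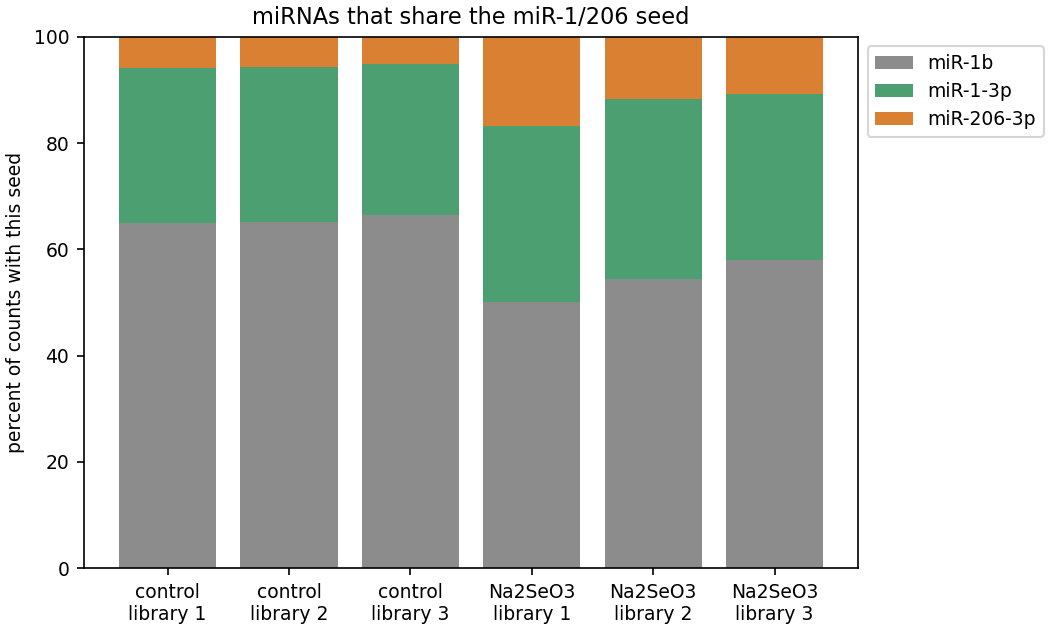
Stacked bars of the percent of counts that each miRNA with the seed GGAAUGU took in each of the 6 libraries, from 0 to 100%. The part of miR-206-3p at the top is between 5.16% and 5.82% in the control libraries and between 10.7% and 16.8% in the Na2SeO3 libraries, while miR-1b at the bottom shrinks from about 65.6% to 54.2% on average.

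Of the pair with the seed UUGGUCC, miR-133a-3p was counted 1911, 1491, and 1174 times in the control libraries and 656, 1496, and 1076 times in the Na2SeO3 libraries. These were 660, 771, and 760 CPM against 955, 1358, and 1183 CPM. The groups did not overlap, and the log2 fold change was 0.68 (SE 0.17; edgeR adjusted p = 0.0082). Without control library 1, the deepest of the 6, the log2 fold change was 0.61 and the adjusted p 0.0585.

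Its partner name miR-133b-3p was the least counted of the 3p arms tested, counted 325, 190, and 140 times in the control group and 81, 262, and 216 times in the Na2SeO3 group. After scaling the control libraries were at 112, 98.3, and 90.6 CPM. Na2SeO3 libraries 2 and 3 were at 238 CPM each, but library 1 was at 118 CPM, just above the highest control library. The log2 fold change was 0.98 (SE 0.24; edgeR adjusted p = 0.00711), and 1.20 without Na2SeO3 library 1, which put miR-133b-3p past the fold change threshold. It did not pass without control library 2 (log2 fold change 0.97, adjusted p = 0.0596, edgeR), control library 3 (0.92, adjusted p = 0.0647), or Na2SeO3 library 3 (0.82, adjusted p = 0.0574), although the fold changes stayed close to that with all libraries.

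The share of miR-133b-3p in the summed counts of both 3p arms, miR-133a-3p and miR-133b-3p, overlapped between the groups. It was 14.5% (95% exact Clopper-Pearson interval 13.1% to 16.1%), 11.3% (9.83% to 12.9%), and 10.7% (9.04% to 12.4%) in the control libraries and 10.99% (8.82% to 13.5%), 14.9% (13.3% to 16.7%), and 16.7% (14.7% to 18.9%) in the Na2SeO3 libraries. On average it was 12.2% ± 2.08 in the control group and 14.2% ± 2.93 in the Na2SeO3 group (SD, n = 3 each; p = 0.3 by an exact permutation test).

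Of the other arms, miR-133a-5p was counted 34, 23, and 23 times in the control libraries and 13, 25, and 14 times in the Na2SeO3 libraries. Mean CPM was 12.8 ± 1.77 in the control group and 19.0 ± 3.65 in the Na2SeO3 group (SD, n = 3 each). The log2 fold change of 0.59 (SE 0.30; edgeR adjusted p = 0.157) did not pass, and it was -0.54 with raw reads as the scale. It made up between 1.28% and 1.94% of the miR-133a counts in all 6 libraries, and the averages of 1.73% ± 0.20 in the control group and 1.62% ± 0.33 in the Na2SeO3 group lay within the spread (SD, n = 3 each; p = 0.7 by an exact permutation test). miR-133b-5p had no count in any library. Neither had rno-miR-133c, whose sequence is the reverse complement of 21 bases of miR-133a-3p.

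Of the miRNAs carried in myosin genes, only miR-499-5p was abundant. It was counted 2536, 1250, and 1174 times in the control libraries and 274, 704, and 529 times in the Na2SeO3 libraries. After scaling these were 876, 647, and 760 CPM against 399, 639, and 582 CPM. The groups were separated by the narrow gap between 647 CPM in control library 2 and 639 CPM in Na2SeO3 library 2. The log2 fold change was -0.49 (SE 0.20; edgeR adjusted p = 0.068), which did not pass. It passed an adjusted p of 0.05 without Na2SeO3 library 2 (log2 fold change -0.64, adjusted p = 0.0408), and the other settings that changed this call are given in the part on processing. miR-499-3p had 1 count, in control library 3.

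miR-208a-3p had 2 counts in control library 2 and none elsewhere. miR-208b-3p, from the slow myosin gene Myh7, had 6, 3, and 1 counts in the control libraries and 1 count in Na2SeO3 library 3 alone. No fold is given for either, because nearly all of these counts are at or under 3. The arms miR-208a-5p and miR-208b-5p had no count. Of the heart muscle list, miR-208a-3p and miR-208b-3p were thus at or near 0 in all 6 libraries. The remaining name on that list, miR-499-5p, was abundant, and the kind of cell it came from was not tested. miR-206-3p, the defining miRNA of skeletal muscle, was among the 58 most counted names in each library.

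The levels were also put in order. The mature forms tested are 21 or 22 bases long, but whether different sequences were captured equally was not tested, so the order is one of counts. In the control group it was miR-1-3p (5435 ± 719 CPM), miR-206-3p (1040 ± 130), miR-499-5p (761 ± 115), miR-133a-3p (730 ± 61.1), miR-133b-3p (100.4 ± 10.99), and miR-133a-5p (12.8 ± 1.77; SD, n = 3 each). miR-499-5p and miR-133a-3p overlapped there and cannot be ordered. In the Na2SeO3 group the order was miR-1-3p (8786 ± 456 CPM), miR-206-3p (3491 ± 818), miR-133a-3p (1166 ± 202), miR-499-5p (540 ± 125), miR-133b-3p (198 ± 69.1), and miR-133a-5p (19.0 ± 3.65; SD, n = 3 each), with no overlap between neighbours. miR-133a-3p thus lay above miR-499-5p in every Na2SeO3 library.

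The second question was whether the miRNAs of a bicistronic pair kept their ratio. A mature name does not tell which locus a read came from, and mammals carry miR-133a at more than 1 locus, so the ratios are between names and not between products of single transcripts. In all, 7 ratios were compared, and adjusted p-values are over these 7. The exact permutation test cannot give a p below 0.1 with 3 libraries against 3.

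In the pair of Mir1 and Mir133a1, the ratio of miR-1-3p to miR-133a-3p was 7.08, 7.91, and 7.29 in the control libraries and 9.11, 6.17, and 7.84 in the Na2SeO3 libraries. The Na2SeO3 libraries spread to both sides of the control libraries. The difference of the mean log2 ratio, Na2SeO3 minus control, was 0.04 (two-sided exact permutation test, p = 0.9; adjusted p = 0.9, n = 3 per group), which was smaller than the SD of the log2 ratio in either group, 0.08 and 0.28. Its sign turned without Na2SeO3 library 1 (-0.09) and when miR-1b was added to miR-1-3p (-0.26, exact permutation test, p = 0.2).

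In the pair of Mir206 and Mir133b, the ratio of miR-206-3p to miR-133b-3p was 8.29, 12.04, and 11.1 in the control libraries and 37.5, 12.08, and 13.4 in the Na2SeO3 libraries. Control library 2 and Na2SeO3 library 2 nearly met, and Na2SeO3 library 1 stood far above the rest. The difference of the mean log2 ratio was 0.82 (two-sided exact permutation test, p = 0.1; adjusted p = 0.14, n = 3 per group), and it was 0.30 without Na2SeO3 library 1. Na2SeO3 library 1 was the least deep of the 6 libraries, and its miR-133b-3p value rested on 81 counts. It also had the highest CPM of miR-206-3p, at 4419. The part of depth in its ratio was not tested.

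Across the pairs, the ratio of miR-206-3p to miR-1-3p was steady in the control group at 0.199, 0.194, and 0.182 and was 0.508, 0.343, and 0.343 in the Na2SeO3 libraries. The groups did not overlap and were far apart compared with the spread among the control libraries. The SD of the log2 ratio was 0.07 in the control group and 0.33 in the Na2SeO3 group, where library 1 stood highest. The difference of the mean log2 ratio was 1.03, a 2.04-fold higher ratio (two-sided exact permutation test, p = 0.1; adjusted p = 0.14, n = 3 per group). When single libraries were left out it ran from 0.84 to 1.12. Setting the sum of miR-206-3p and miR-133b-3p against the sum of miR-1-3p and miR-133a-3p gave a difference of 0.98 on the log2 scale (exact permutation test, p = 0.1). The ratio of miR-133b-3p to miR-133a-3p was 0.170, 0.127, and 0.119 in the control libraries and 0.123, 0.175, and 0.201 in the Na2SeO3 libraries. These groups overlapped, with a difference of 0.25 (exact permutation test, p = 0.3; adjusted p = 0.35, n = 3 per group).

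The ratio of miR-499-5p to miR-1-3p, chosen after the counts were seen, moved the other way. It was 0.188, 0.106, and 0.137 in the control libraries and 0.0458, 0.0763, and 0.0627 in the Na2SeO3 libraries, and all Na2SeO3 libraries lay below all control libraries. The difference of the mean log2 ratio was -1.21 (two-sided exact permutation test, p = 0.1; adjusted p = 0.14, n = 3 per group).

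**Figure D3:**
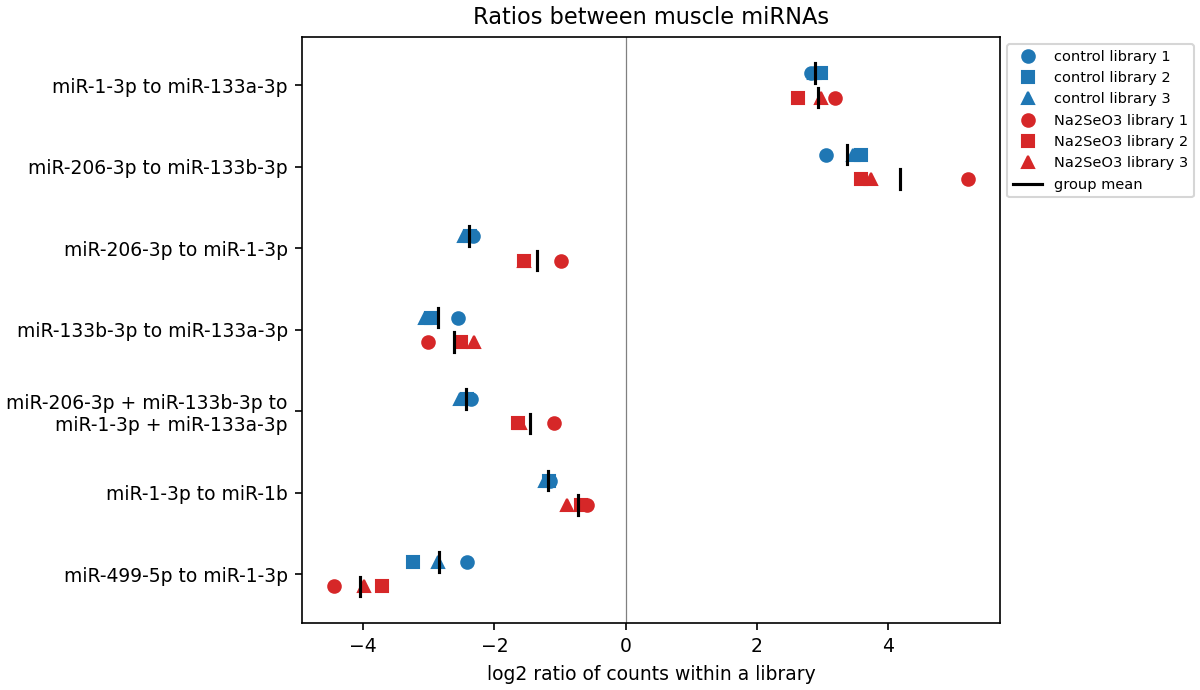
Log2 ratio of counts within a library for 7 ratios between muscle miRNAs, with control libraries in blue, Na2SeO3 libraries in red, the marker giving the library number, and bars for the group means (n = 3). The groups are apart for miR-206-3p to miR-1-3p, miR-1-3p to miR-1b, and miR-499-5p to miR-1-3p, overlap for miR-1-3p to miR-133a-3p and miR-133b-3p to miR-133a-3p, and are separated mainly by Na2SeO3 library 1 for miR-206-3p to miR-133b-3p.

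A test of these ratios that shares its estimate of the spread with all miRNAs was made by scaling every library to its counts of miR-1-3p, a choice made after the counts were seen. On this scale the log2 fold change of miR-206-3p was 1.05 (SE 0.19; edgeR adjusted p = 0.00183). miR-499-5p was at -1.22 (SE 0.26; edgeR adjusted p = 0.00431) and miR-1b at -0.45 (SE 0.12; edgeR adjusted p = 0.0132). miR-133a-3p was at -0.019 (SE 0.18; edgeR adjusted p = 0.923) and miR-133b-3p at 0.26 (SE 0.29; edgeR adjusted p = 0.459). Relative to miR-1-3p, therefore, miR-206-3p rose and miR-499-5p and miR-1b fell, and no change passed for miR-133a-3p or miR-133b-3p. The median over all 341 was -0.63 on this scale, with 7 DEmiRNAs higher and 82 lower, so miR-1b lay above that median and miR-499-5p below it. Over the settings tried with all 6 libraries, the adjusted p ranged from 1.02e-17 to 0.112 for miR-206-3p, from 1.53e-05 to 0.9999 for miR-499-5p, and from 0.0071 to 0.9999 for miR-1b. Both values of 0.9999 came from glmTreat, whose null is a log2 fold change of up to 1. Among the other settings the highest adjusted p was 0.30 for miR-499-5p (edgeR, library size only) and 0.52 for miR-1b (edgeR, no filter).

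Together, the names followed took 0.743%, 0.821%, and 0.699% of all counts in the control libraries and 1.51%, 1.54%, and 1.499% in the Na2SeO3 libraries. The mean share was 0.754% ± 0.062 and 1.52% ± 0.019 (SD, n = 3 each), 2.01 times as high in the Na2SeO3 group (two-sided exact permutation test, p = 0.1). As a share of raw reads the groups overlapped and the difference turned, at 0.179% to 0.295% in the control group and 0.173% to 0.200% in the Na2SeO3 group (exact permutation test, p = 0.2). With miR-1b the shares were 1.90% ± 0.16 and 3.07% ± 0.20 (SD, n = 3 each). miR-133a-3p and miR-133b-3p together took 0.0776% ± 0.0043 and 0.147% ± 0.035 of the counts (SD, n = 3 each).

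**Figure D4:**
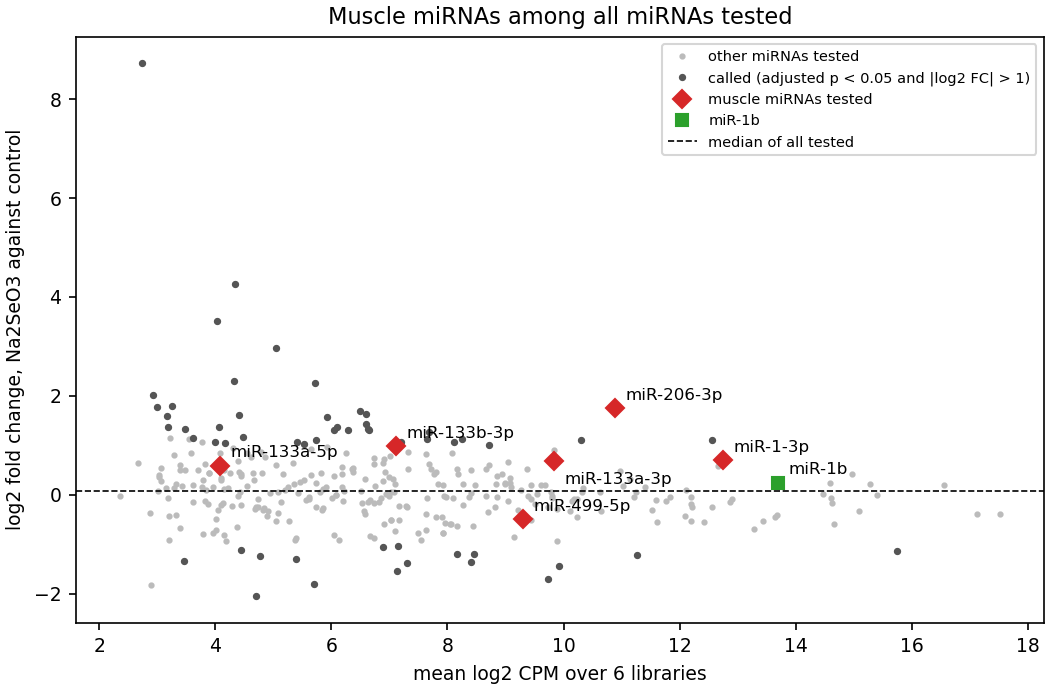
Log2 fold change (Na2SeO3 against control, TMM scaling) against the mean log2 CPM over 6 libraries for the 341 miRNAs tested, with DEmiRNAs in dark grey, the 6 muscle miRNAs tested in red, miR-1b in green, and a dashed line at the median of 0.08. miR-206-3p stands at 1.75, the other 4 muscle miRNAs above the line lie between 0.59 and 0.98, and miR-499-5p lies at -0.49, and the positions of miR-1-3p, miR-133a-3p, and miR-133b-3p relative to 0 turn with raw reads as the scale.

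Other miRNAs with a known part in muscle did not share a direction. From a list of 21 miRNAs that act in muscle differentiation, 18 were tested, of which 2 passed an adjusted p of 0.05 as higher and 7 as lower, with a median log2 fold change of -0.19 (0.08 over all tested). Over all 341 miRNAs tested, 20.8% passed as higher and 13.8% as lower, and the counts of the lists that follow are to be read beside these shares. The 2 were miR-486 (log2 fold change 1.12, adjusted p = 0.00148, edgeR), which is made from an intron of the ankyrin gene Ank1 in muscle and also in red cells, and miR-378a-3p (0.59, adjusted p = 0.0157). The 7 included the 3 miR-29 3p arms, which silence collagen and other matrix genes, namely miR-29a-3p (log2 fold change -1.70), miR-29b-3p (-1.29), and miR-29c-3p (-1.25), all 3 of them DEmiRNAs. The other members of the 7 were miR-31a-5p (-0.87), miR-222-3p (-0.81), miR-221-3p (-0.60), and miR-26a-5p (-0.33). In the smooth muscle list, 3 of 4 passed as lower, namely miR-143-3p (-0.60), miR-145-5p (-0.85), and miR-145-3p (-0.73), and this list took 2.95% to 3.38% of the counts in the control libraries and 2.06% to 2.64% in the Na2SeO3 libraries.

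Lists of markers of other cells differed between the groups in some cases and overlapped in others, and none of the lists was tested as a whole. The lens and eye epithelium list, led by miR-184, took 9.18% to 10.4% of the counts in the control libraries and 5.12% to 6.40% in the Na2SeO3 libraries, with 5 of 8 lower past the test and none higher. The neural and glial list took 2.85% to 3.03% and 3.95% to 4.63%, with 2 of 4 higher past the test, miR-9a-5p (log2 fold change 0.43) and miR-219a-2-3p (4.26). The other members of that list, miR-338-3p (-0.93, adjusted p = 0.0519, edgeR) and miR-124-3p (-0.12, adjusted p = 0.709), did not pass. The red cell list took 0.0219% to 0.0285% and 0.0418% to 0.0537%, of which only miR-486 passed as higher, while miR-451-5p, the defining miRNA of red cells, did not (log2 fold change 0.06, adjusted p = 0.833, edgeR). The white cell list took 0.0125% to 0.0159% and 0.0107% to 0.0165%, with none of 4 past the test. The 2 miRNAs of the skeletal muscle list, miR-206-3p and miR-133b-3p, took 0.0939% to 0.119% and 0.354% to 0.470%. The 3 miRNAs of the heart list took 0.0605% to 0.0898% and 0.0413% to 0.0727%, nearly all of it miR-499-5p, since miR-208a-3p and miR-208b-3p were at or near 0. The part of any of these cells in the levels of the muscle miRNAs was not tested.

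The miRNAs nearest in pattern were found by the root mean square difference of log2 CPM, centred on each miRNA's own mean, over the 6 libraries and 320 other rat miRNAs. This is a description, since libraries of the same group share their group difference. Nearest to miR-206-3p was miR-493-3p at 0.23, followed by miR-540-3p and miR-501-3p at 0.27 each, and all 3 are far less abundant, with means of 3.06 to 50.2 CPM in the control group. Nearest to miR-1-3p were miR-370-3p at 0.08, miR-322-3p at 0.09, and miR-15b-5p at 0.13, and miR-15b-5p was also nearest to miR-133a-3p at 0.13, followed by miR-466c-5p at 0.13 and miR-411-3p at 0.15. For miR-133b-3p the nearest were miR-1193-3p (0.17), miR-341 (0.19), and miR-496-3p (0.19), and for miR-133a-5p miR-16-5p, miR-340-3p, and miR-186-5p (0.13 each). miR-499-5p lay nearest to miR-384-5p (0.15), the neural miRNA miR-124-3p (0.19), and miR-145-3p (0.19).

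**Figure D5:**
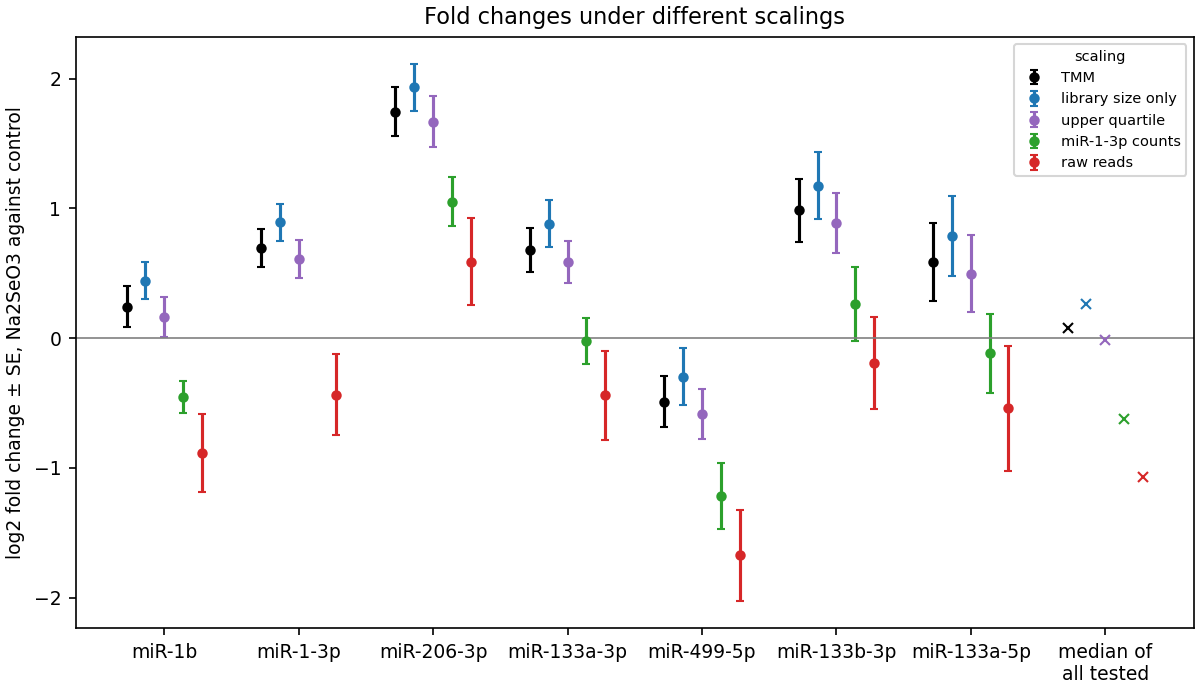
Log2 fold change with its standard error for the 6 muscle miRNAs tested and miR-1b under 5 scalings, and the median of all miRNAs tested as crosses. miR-206-3p stays above 0 and miR-499-5p below 0 under each, whereas miR-1-3p, miR-133a-3p, miR-133b-3p, miR-133a-5p, and miR-1b are above 0 with TMM, library size, and upper-quartile scaling and below 0 with raw reads. With miR-1-3p counts as the scale, where miR-1-3p itself has no value, miR-133a-3p (-0.019), miR-133a-5p (-0.12), and miR-1b (-0.45) are below 0 too.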

How the data were processed

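Small RNA from the lens capsules of 3 control and 3 Na2SeO3 rats was sequenced. Per the study's methods, reads were filtered by Cutadapt and Fqtrim, quality was read from FastQC, and miRDeep matched reads to the Ensembl rat genome. The authors deposited raw counts per miRNA name, without normalization. HISAT2 is also named for the study's sequencing. Versions and the genome build are not given in the sources used here, so no coordinates are given. The chi-square of each pair of libraries was at least 28.0 times its degrees of freedom, so none of the 6 libraries was treated as a duplicate.

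From the counts, names were filtered with filterByExpr (minimum count 10), scaled with TMM, and tested with the quasi-likelihood functions of edgeR with group as the only term. DEmiRNAs had an adjusted p-value under 0.05 and an absolute log2 fold change over 1, as in the study's methods. Log2 CPM used a prior count of 2, and log2 ratios a prior of 0.5 counts. Versions were edgeR 4.0.16 and DESeq2 1.42.0, run in R 4.3.3, and the procedure was tested on simulated counts. The raw reads of each library, used only as a scale, were taken from the study's sequencing summary. Values with 1 number per library were compared by two-sided exact permutation tests.

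The members and lists were chosen with earlier results of these data known, and the tests are no independent support for them. Named were all members, miR-133c, miRNAs that share a seed with a member tested, the 3 nearest in pattern to each, and list members beside a count. Alternatives were other scalings, filters, tests, priors, and arms, a replicate block, and single libraries left out. The miR-1-3p scale, the sums with miR-1b, and 2 further ratios were added after seeing the data. Lens markers outside miRNAs were not analysed here.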

Additional observations from a re-analysis of the deposited data

How the results depend on the processing

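miR-206-3p stayed positive in all alternatives and a DEmiRNA in each fit but that on raw reads (0.59). There were 56 DEmiRNAs with all libraries and TMM, and separate fits gave other numbers. Leaving out single libraries gave 45 to 62, an adjusted p alone gave 118, raw reads as the scale 182, glmTreat, whose null is a log2 fold change of up to 1, 9, and miR-1-3p as the scale 89. The number of muscle miRNAs among the 56 was 1 of 6 tested, beside 16.4% of all miRNAs tested. With single libraries left out it was 1 to 2, beside 45 to 62 DEmiRNAs in all. miR-133b-3p joined without control library 1 or Na2SeO3 library 1. It was 4 with the adjusted p alone, beside 118 of 341 (34.6%). With library size only it was 2, beside 63 of 341, and with miR-1-3p as the scale 2, beside 89 of 341. Raw reads gave 1, miR-499-5p as lower, beside 182 of 341. Past an adjusted p of 0.05 were 4 muscle miRNAs, beside 34.6% of all tested. The number was 3 to 5 when libraries were left out (21.5% to 33.2% of all tested), 1 with raw reads (62.8%), 1 with glmTreat (2.64%), and 2 with miR-1-3p as the scale (54.5%). It was 5 with upper-quartile scaling, RLE, DESeq2, at least 10 counts in every library, and rat names only (32.3% to 41.2%).

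With raw reads the log2 fold changes were -0.44 for miR-1-3p and for miR-133a-3p, -0.54 for miR-133a-5p, -0.19 for miR-133b-3p, -1.68 for miR-499-5p, and -0.88 for miR-1b. With miR-1-3p as the scale, they were -0.019 for miR-133a-3p, -0.12 for miR-133a-5p, 0.26 for miR-133b-3p, -1.22 for miR-499-5p, and -0.45 for miR-1b. These shifts follow from the raw-read and miR-1-3p scales, which move the median of all miRNAs by -1.15 and -0.71. glmTreat left miR-1-3p (0.69), miR-133a-3p (0.68), and miR-133b-3p (0.98) short of its threshold, as its construction sets. miR-499-5p passed as lower on the raw-read and miR-1-3p scales, as a DEmiRNA, and also with upper-quartile scaling (-0.59), RLE (-0.55), DESeq2 (-0.56), at least 10 counts in every library (-0.51), and rat names only (-0.52), and for the last 5 the cause was not tested.

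With libraries left out, the log2 fold changes ran from 0.60 to 0.79 for miR-1-3p, 0.55 to 0.77 for miR-133a-3p, 0.42 to 0.71 for miR-133a-5p, 0.82 to 1.20 for miR-133b-3p, 1.51 to 1.87 for miR-206-3p, and -0.64 to -0.35 for miR-499-5p. The difference in the log2 ratio of miR-1-3p to miR-133a-3p ran from -0.093 to 0.19, and was -0.26 with miR-1b added. That of miR-206-3p to miR-133b-3p ran from 0.30 to 1.11, and that of miR-133b-3p to miR-133a-3p from 0.10 to 0.45. The difference in the members' summed share was -0.047 percentage points with raw reads, in place of 0.76.

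Both groups are numbered 1 to 3 but come from different animals, and libraries with the same number deviated from their group means with correlations of -0.17, -0.18, and -0.26 across miRNAs, so the numbers were not taken as pairs. With the replicate number as a block there were 49 DEmiRNAs, miR-206-3p was at 1.73, and no call of a muscle miRNA changed. Depth limits miR-208a, miR-208b, miR-499-3p, and the 5p arms of miR-1, miR-133b, and miR-206, which were not tested.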

Other observations

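Of the raw reads of each library, the muscle miRNAs took 0.295%, 0.216%, and 0.179% in the control libraries and 0.173%, 0.200%, and 0.176% in the Na2SeO3 libraries, each in the order of libraries 1, 2, and 3. The control libraries differed more among themselves on this measure than the Na2SeO3 libraries did. Na2SeO3 library 1 held the highest CPM of miR-206-3p and the lowest of miR-133a-3p, miR-133b-3p, and miR-499-5p in its group, and was neither the highest nor the lowest in miR-1-3p.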
